A study of Mus musculus with 157 samples.

Results

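Lrba, Setd2, Mll2, Vps13a, Atxn1l, Tshz1, Blvra and Serpine2 were the mRNAs followed here, 8 of the 19600 genes in the table. They were chosen by a measured value, the difference between B cells with and without etoposide in the share of each mRNA found in heavy polysomes, with no numerical threshold. The rows were found by gene symbol, each symbol matched 1 row, and all 8 rows passed the minimum of 100 counts per gradient on average that 7999 genes passed. Because the share in LPS+ET against LPS chose them, that contrast is described for them and not tested, and the tests concern the third treatment, in which the kinase ATM was inhibited.

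All cells were primary splenic B cells of C57BL/6Babr mice, activated with lipopolysaccharide (LPS) at 10 µg/ml. The LPS group had LPS alone for 48 h, and the LPS+ET group received in addition etoposide, a topoisomerase II poison that breaks DNA, at 20 µM for 4 h. In the LPS+ET+KU group KU55933, an inhibitor of the kinase ATM, was added at 10 µM after 47 h of LPS, 1 h before the same etoposide exposure. After 3 min in cycloheximide, which holds ribosomes on mRNA, cytoplasmic extracts were separated on sucrose gradients and 3′ end libraries were made from fractions 4 to 16, with 4 gradients in each group, which the study's methods call biological replicates, so that p-values measure the spread between gradients. Monosomes lay in fractions 4 to 7, light polysomes in 8 to 10 and heavy polysomes in 11 to 16. No group had KU55933 without etoposide. Gradients are named by treatment and library pool (LUL15, LUL16, LUL17, LUL18), and where 4 values follow each other they are in that order.

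The more ribosomes an mRNA carries, the further it travels into the gradient. The number it carries depends on how often ribosomes start, how fast they move and how long the coding sequence is, so a long open reading frame can hold many more ribosomes than a short one. ATM is a kinase that responds to DNA double-strand breaks and passes the signal to p53 and other targets. Of the 8 mRNAs, Lrba and Vps13a encode very large proteins of membrane traffic and lipid transfer, Setd2 and Mll2 encode histone methyltransferases, Atxn1l and Tshz1 encode nuclear regulators of transcription, Blvra encodes an enzyme of haem breakdown and Serpine2 encodes a secreted protease inhibitor.

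The libraries tagged mRNAs at their poly(A) ends, so the last bases before the counted site show which end of each mRNA was measured. The windows of 30 bases that end at the most used site are given 5′ to 3′ as on the mRNA, from GENCODE M21 transcripts on GRCm38, with the polyadenylation signal AATAAA in capitals where it was found.
Lrba: ttacataAATAAAttctttgtatgttgtga
Vps13a: caacttgtcataaactggtgttgaaagtct
Setd2: taaaaAATAAAatcaattaaagaacttgga
Mll2: aaaaaaAATAAAtcgctgacaagtgtgaac
Atxn1l: cacaatatatatcaatatctatatatctat
Blvra: agctcttacAATAAAatactctggataaac
Serpine2: taaagttggaaaactaacgtctcgctggac
The windows lie at chr3:86782659-86782688 (plus strand) for Lrba, chr19:16615685-16615714 (minus) for Vps13a, chr9:110618584-110618613 (plus) for Setd2, chr15:98831930-98831959 (minus) for Mll2, chr8:109726486-109726515 (minus) for Atxn1l, chr2:127097051-127097080 (plus) for Blvra and chr1:79794308-79794337 (minus) for Serpine2. AATAAA, searched on the mRNA strand only, stood in the windows of Lrba, Setd2, Mll2 and Blvra, with 15 to 19 bases from the end of the signal to the site. The windows of Vps13a, Atxn1l and Serpine2 held neither AATAAA nor its variant ATTAAA. Among 6105 genes tested for the share whose window lay in an annotated transcript, 58.5% of windows held AATAAA, a further 14.5% held ATTAAA and 27% held neither. The sites of Lrba, Setd2 and Blvra lay 1 to 4 bases from an annotated transcript end in an untranslated exon, as did that of Tshz1. Of the Vps13a counts 76.6% came from a site in a non-coding exon just outside the locus listed for the gene, and 3 further sites held the rest. Mll2 was likewise counted at 4 sites, the largest holding 49.7%, and Atxn1l at 2, the larger holding 74.9%.

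The 156 libraries of fractions 4 to 16 held between 14724 and 4170688 counts each, and the 12 gradients between 6404957 and 21449781. Of these libraries 12 held under 100000 counts, namely fraction 4 in 5 gradients, fraction 12 of LPS LUL17, fractions 11, 12, 15 and 16 of LPS+ET LUL16, fraction 16 of LPS+ET LUL15 and fraction 15 of LPS+ET+KU LUL15. The gradient LPS+ET LUL16 stood apart, with 30.4% of its counts in heavy polysomes against 37.6 to 68.2% in the other 11. A single LPS library of fraction 17 held 777 counts and none of any of the 8 mRNAs, which allows up to 3 counts each. Cdkn1a, the p53 target used to check the etoposide label, was at 26.9 ± 4.29 CPM (counts scaled to the library total) in LPS, 722 ± 167 in LPS+ET and 662 ± 184 with KU55933 (mean ± SD, n = 4 gradients, as in all such values below). The summed level of 6 B cell markers ran from 2059 to 2716, 1565 to 2025 and 1788 to 2469 CPM in the 3 groups, that of 5 plasma cell markers from 388 to 641, 395 to 1238 and 199 to 687, of 6 T cell markers from 131 to 159, 109 to 296 and 83.5 to 377, of 7 myeloid markers from 33.4 to 86.8, 47.2 to 167 and 32.9 to 125, and of 4 erythroid and platelet markers from 57.7 to 66.3, 40.2 to 92.9 and 27.5 to 180. No marker was at 0 in a whole group, and the part of such cells in the results below was not tested.

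The heavy polysome share of a gene is the percent of its signal that fell in fractions 11 to 16, after each fraction library was scaled to CPM. Scaling gives every fraction the same total, so a share is relative to the other mRNAs. The study reports that etoposide lowered polysome assembly as a whole, which cannot be read from these shares. In LPS+ET against LPS 7 of the 8 mRNAs had a lower share and Serpine2 a higher one, and for all 8 the gradients of the groups did not overlap, where 13.5% of the 7999 genes did not. Of these 8, 6 were among the 25 genes (0.313% of 7999) called at an adjusted p under 0.01 in the fit over all genes (limma, Benjamini-Hochberg), namely all except Blvra and Serpine2. Since the contrast chose them, nothing is read from these counts. The difference in log2 odds of the share (the log2 of heavy over remaining signal) put Lrba at place 4 from the lowest of 7999 genes, at -2.19 (SE 0.34), and Vps13a at -1.88 (SE 0.29) and Mll2 at -1.83 (SE 0.22) in places 15 and 17. Atxn1l stood at -1.49 (SE 0.23), Setd2 at -1.26 (SE 0.18), Blvra at -1.23 (SE 0.20) and Tshz1 at -1.09 (SE 0.17), in places 45 to 191. Serpine2, at 1.72 (SE 0.29), was at place 29 from the highest.

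**Figure D1:**
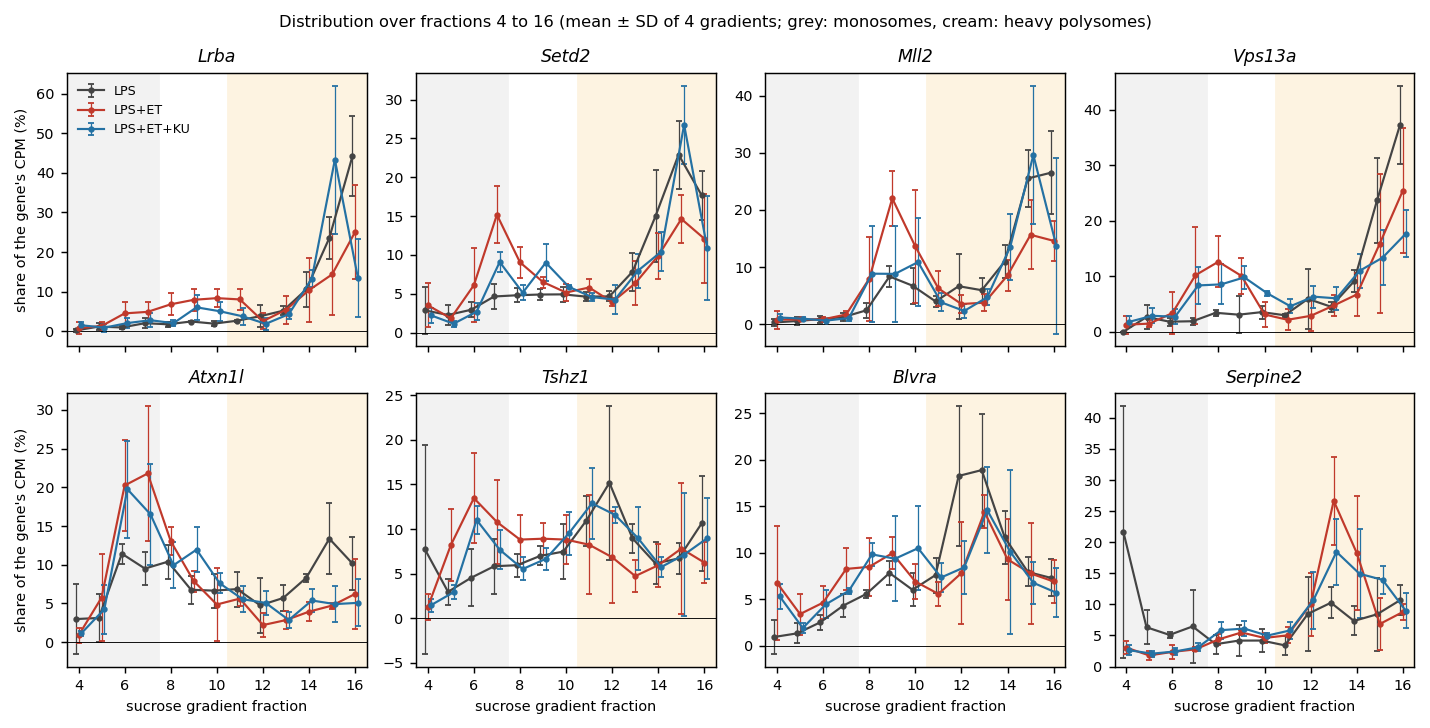
Each panel shows 1 mRNA, with the sucrose gradient fraction (4 to 16) on the x axis and the percent of the mRNA's CPM found in that fraction on the y axis, as mean ± SD of 4 gradients for LPS (dark grey), LPS+ET (red) and LPS+ET+KU (blue). In LPS, Lrba, Setd2, Mll2 and Vps13a peaked in fractions 15 and 16, Blvra in 12 and 13, and Serpine2 after etoposide peaked in fraction 13.

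Lrba, a BEACH domain protein of vesicle traffic that keeps CTLA-4 from being degraded, had the narrowest spread in LPS. Its heavy share came to 89.8, 88.7, 90.8 and 90.1% in the LPS gradients and 71.0, 64.4, 60.8 and 66.4% in LPS+ET. Every LPS gradient lay above every LPS+ET gradient. In LPS 44.2 ± 10.1% of the Lrba signal sat in fraction 16 alone and 23.6 ± 5.32% in fraction 15, and only 4.17% in monosomes and 5.99% in light polysomes. After etoposide fraction 16 held 25.1 ± 12.0%, monosomes 11.3% and light polysomes 23%, so that more of the signal sat in the upper part of the gradient. With KU55933 the heavy share came to 79.2, 91.3, 72.8 and 76.3%, and each gradient lay above all 4 of LPS+ET. Fraction 15 then held the largest part, 43.4 ± 18.7%, and fraction 16 13.4 ± 9.89%. These single-fraction values rest on few tags, as Lrba had 83 to 200 counts in fraction 16 of the LPS gradients but 1 to 25 in LPS+ET and 2 to 17 with KU55933.

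Vps13a, which carries lipids between membranes and is the gene of chorea-acanthocytosis, lay deep in the gradient in LPS, as Lrba did. Its share came to 84.3, 87.4, 81.6 and 81.0% in LPS and 64.8, 45.9, 67.5 and 53.3% in LPS+ET, the widest spread of the 8 mRNAs in that group. The lowest value came from LPS+ET LUL16, in which Vps13a had 83 counts, and without that gradient the log2 odds difference to LPS was -1.65. With KU55933 the share came to 50.8, 59.7, 64.2 and 61.3%, inside the LPS+ET range in all 4 gradients and below all LPS gradients. Fraction 16 held 37.4 ± 7.03% of the Vps13a signal in LPS, 25.5 ± 11.3% in LPS+ET and 17.7 ± 4.26% with KU55933. Fraction 8, the lightest polysome fraction, held 3.42 ± 0.503% in LPS, 12.6 ± 4.59% in LPS+ET and 8.55 ± 3.61% with KU55933.

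Setd2, the enzyme that trimethylates lysine 36 of histone H3 on transcribed genes, had 330 to 981 counts a gradient, more than Lrba or Vps13a in each of the 12. The share came to 71.8, 75.3, 69.5 and 74.2% in LPS, 50.3, 50.9, 53.3 and 56.2% in LPS+ET and 62.7, 67.6, 65.5 and 63.6% with KU55933. The 3 groups did not overlap, with LPS+ET+KU between the other two. The largest single increase of the mean in LPS+ET was in fraction 7, at the edge of the monosomes, which held 4.64 ± 1.6% in LPS, 15.2 ± 3.66% in LPS+ET and 9.09 ± 1.28% with KU55933. Fraction 15 held 22.9 ± 4.38%, 14.6 ± 3.11% and 26.8 ± 5.04% in the same order.

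Mll2, the row of Kmt2d, which methylates lysine 4 of histone H3 at enhancers, lay in light polysomes rather than monosomes where it was not in heavy ones. Its heavy share came to 76.6, 78.9, 82.4 and 80.3% in LPS, 47.9, 53.3, 53.7 and 54.3% in LPS+ET and 68.6, 74.8, 66.8 and 60.6% with KU55933. Again the 3 groups did not overlap. Monosomes held 2.95%, 4.13% and 3.8% of the Mll2 signal in the 3 groups, whereas light polysomes held 17.5%, 43.6% and 28.5%. Within the light polysomes fraction 9 went from 8.35 ± 1.80% in LPS to 22 ± 4.76% in LPS+ET, each LPS+ET gradient being at 18.9% or more and each LPS gradient at 10.1% or less. With KU55933 fraction 9 held 8.80 ± 8.43%, from 1.17 to 19.2%, and overlapped both other groups.

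Atxn1l, a partner of the repressor Capicua and a relative of ataxin 1, had the lowest heavy share in LPS+ET of the 8 mRNAs. The values were 44.7, 54.8, 52.7 and 44.3% in LPS, 23.4, 22.3, 30.2 and 26.4% in LPS+ET and 28.2, 28.3, 35.2 and 23.7% with KU55933. The LPS+ET+KU gradients overlapped those of LPS+ET and lay below all of LPS. Monosomes held 27%, 48.6% and 41.7% of the Atxn1l signal. Most of that was in fractions 6 and 7, which held 11.4 ± 1.31% and 9.5 ± 2.16% in LPS, 20.2 ± 5.85% and 21.8 ± 8.74% in LPS+ET, and 19.8 ± 6.24% and 16.52 ± 6.51% in LPS+ET+KU.

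Tshz1, a teashirt zinc finger protein known from development, had few counts, 97 to 377 a gradient. It stood at 59.9, 57.1, 56.7 and 60.5% in LPS, 36.6, 38.2, 43.6 and 40.8% in LPS+ET and 56.8, 57.8, 54.8 and 51.7% with KU55933. The LPS+ET+KU gradients all lay above LPS+ET, and 2 of them lay within the LPS range. In fraction 6 the signal went from 4.54 ± 3.18% in LPS to 13.5 ± 5.03% in LPS+ET and was 11.0 ± 1.61% with KU55933, and in fraction 12 it was 15.2 ± 8.62%, 6.83 ± 5.14% and 11.6 ± 0.879%. The Tshz1 values of fraction 12 rest on 0 to 77 counts a library. The LPS LUL17 gradient had 1 count in a fraction 4 library of 17629 counts, and the overlap rested on fraction 4. With that fraction left out the share came to 59.9, 60.8, 75.3 and 60.5% in LPS and 57.4, 58.2, 56.2 and 52.5% with KU55933, so that all gradients with the inhibitor lay below all of LPS and, as before, above all of LPS+ET. The 75.3% of LPS LUL17 drew on a fraction 12 library of 32306 counts, which stayed in, with 2 counts of Tshz1.

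Blvra, which reduces biliverdin to bilirubin after haem has been opened, was the shortest of the 8. Its heavy share came to 74.2, 70.1, 70.5 and 71.5% in LPS, 59.1, 45.9, 52.5 and 49.3% in LPS+ET and 51.6, 47.8, 55.0 and 57.0% with KU55933. Both groups with etoposide overlapped each other and lay below LPS. The difference lay in the middle of the heavy range, where fractions 11 to 14 held 56.4 ± 2.90% in LPS against 37.03 ± 10.0% in LPS+ET and 40.4 ± 4.60% with KU55933, while fractions 15 and 16 together held 15.2%, 14.7% and 12.4%. Without scaling to CPM the LPS+ET share of Blvra was 72.5, 34.1, 78.0 and 71.3% and overlapped that of LPS, 78.4, 77.2, 68.2 and 81.3%.

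Serpine2, also called protease nexin-1, an inhibitor of thrombin and urokinase, alone of the 8 had a higher share after etoposide. The share came to 38.6, 55.4, 61.6 and 38.6% in LPS, 73.8, 74.9, 75.8 and 78.1% in LPS+ET and 69.2, 77.0, 71.6 and 73.5% with KU55933. Both groups with etoposide lay above all LPS gradients. The wide LPS spread came with fraction 4, which held 21.6 ± 20.3% of the scaled signal on 0 to 5 counts a library. With fraction 4 left out the LPS values drew together to 64.5, 60.7, 61.6 and 61.9%, against 75.4, 76.4, 79.1 and 81.0% in LPS+ET and 71.3, 78.2, 73.5 and 76.1% with KU55933, and the log2 odds difference of LPS+ET to LPS was 1.12 in place of 1.72. Fraction 13 held 10.3 ± 2.53% in LPS, 26.7 ± 7.08% in LPS+ET and 18.5 ± 5.36% with KU55933.

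**Figure D2:**
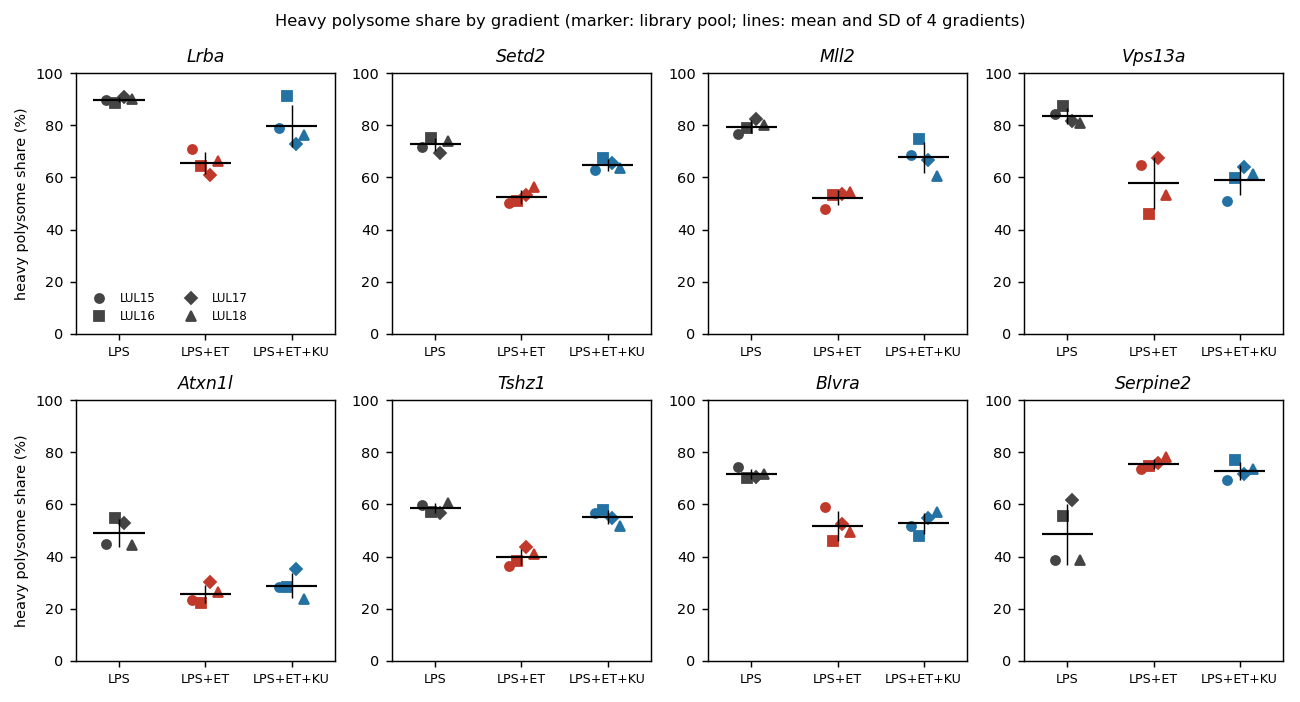
Each panel shows 1 mRNA, with the treatment on the x axis and the heavy polysome share (percent of CPM in fractions 11 to 16) on the y axis. Each marker is 1 gradient, its shape gives the library pool, and the lines give the mean and SD of 4 gradients. For Lrba, Setd2, Mll2 and Tshz1 all LPS+ET+KU gradients lie above all LPS+ET gradients, and for Vps13a, Atxn1l, Blvra and Serpine2 they overlap.

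The comparison of LPS+ET+KU with LPS+ET asks what ATM inhibition did to the share in cells that received etoposide. Lrba, Setd2, Mll2 and Tshz1 were higher in LPS+ET+KU without overlap, 4 of the 8, where 3.55% of the 7999 genes were higher without overlap. In each of these the share was higher in 4 of 4 pools, by 14.2 points on average for Lrba, 12.2 for Setd2, 15.4 for Mll2 and 15.5 for Tshz1. None of the 8 passed the test, and no gene of the 7999 did (0% called, limma, adjusted p under 0.01). At an unadjusted p under 0.05 limma had 684 genes (8.55%), these 4 mRNAs among them. An edgeR test of heavy against remaining counts called 4 genes, and Lrba, Setd2, Mll2 and Tshz1 were not among them. The LPS+ET gradients had been used to choose the mRNAs, and for all but Serpine2 a low share in them was part of the choice. That favours a higher share in this contrast, so the 4 of 8 cannot be set against all genes as a result.

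Tshz1 had a log2 odds difference of 0.90 (SE 0.17, limma adjusted p = 0.144), Mll2 of 0.95 (SE 0.22, adjusted p = 0.25), Setd2 of 0.73 (SE 0.18, adjusted p = 0.275) and Lrba of 1.15 (SE 0.34, adjusted p = 0.308). Lrba leaned most on 1 gradient, as without LPS+ET+KU LUL16, where its share came to 91.3%, the difference was 0.72. Without LPS+ET LUL16, the gradient that stood apart, the differences were 0.87 for Tshz1, 0.96 for Mll2, 0.69 for Setd2 and 1.12 for Lrba. The remaining mRNAs had differences near 0 on this scale, 0.06 (SE 0.29, adjusted p = 0.977) for Vps13a, 0.07 (SE 0.20, adjusted p = 0.962) for Blvra, 0.23 (SE 0.23, adjusted p = 0.836) for Atxn1l and -0.21 (SE 0.29, adjusted p = 0.888) for Serpine2. Vps13a was higher in 2 pools and lower in 2, Atxn1l and Blvra were each higher in 3 pools and lower in 1, and Serpine2 was lower in 3 and higher in 1. The median difference was 0.48 over the 8 mRNAs and 0.01 over all genes. For all but Serpine2 a low share in LPS+ET was part of the choice, so the 2 medians cannot be set against each other as a result.

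Scaling mattered to this contrast. With counts as deposited the median over all genes was -0.37, and the differences relative to that median were 1.31 for Mll2, 1.01 for Tshz1, 0.73 for Lrba and 0.18 for Setd2. Before that median was subtracted, Setd2 stood at -0.19, with its sign reversed.

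Against LPS alone, LPS+ET+KU asks how far the share with the inhibitor stayed from cells without etoposide. Vps13a, Atxn1l and Blvra, 3 of the 8, had a lower share, where 0.688% of 7999 genes were called lower and 0.875% in either direction. The LPS gradients had been used to choose the mRNAs, and for all but Serpine2 a high share in them was part of the choice. That favours a lower share in this contrast, so the 3 of 8 cannot be set against all genes as a result. Vps13a differed by -1.83 (SE 0.29, limma adjusted p = 0.00741), place 9 from the lowest of 7999, Blvra by -1.17 (SE 0.20, adjusted p = 0.00848) and Atxn1l by -1.26 (SE 0.23, adjusted p = 0.00975). In all 3 the share was lower in 4 of 4 pools and the gradients did not overlap, where 9.48% of genes were lower without overlap. These calls lay close to the threshold: with the pool as a block Vps13a had an adjusted p of 0.012 and Blvra of 0.0102, and with any 1 of the 8 gradients left out all 3 had adjusted p between 0.0141 and 0.0378. With counts as deposited they had adjusted p between 0.186 and 0.47, and with the 12 shallow libraries left out between 0.243 and 0.831. With genes averaging 30 or more counts included they had 0.0174 to 0.0209, and Blvra had 0.0181 without fraction 4. Setd2 and Mll2 were also lower without overlap, and differed by -0.53 (SE 0.18, adjusted p = 0.0996) and -0.88 (SE 0.22, adjusted p = 0.0367), neither past the threshold.

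Tshz1 lay at -0.19 (SE 0.17, adjusted p = 0.581) from LPS, with 1 pool higher and 3 lower, and with fraction 4 left out at -0.50 (adjusted p = 0.217), lower in 4 of 4 pools and without overlap. Lrba lay at -1.05 (SE 0.34, adjusted p = 0.0947), with 1 pool higher and 3 lower. Serpine2 was higher without overlap, as 6.78% of genes were, by 1.51 (SE 0.29, adjusted p = 0.0129), and by 0.86 (adjusted p = 0.0174) with fraction 4 left out. Here too the LPS gradients had been used by the choice, with a low share in them for Serpine2 and a high one for the others. The median difference was -0.96 over the 8 mRNAs and -0.02 over all genes.

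The ribosome-associated level of an mRNA was taken as its CPM in the counts summed over fractions 4 to 16. Because all fraction libraries were made from RNA at the same concentration, this level weighs fractions by their library totals. It is relative to the total of the gradient, so neither cell number nor total RNA per cell can be read from it. Fewer cells with the mRNA and less of it per cell cannot be told apart in it. Serpine2 stood at 9.05, 8.64, 13.9 and 10.2 CPM in LPS, at 255, 235, 389 and 307 CPM in LPS+ET and at 77.3, 102, 119 and 76.1 CPM with KU55933. The 3 groups lay far apart, and the LPS+ET+KU level was between the others. Relative to LPS+ET the level with KU55933 fell by 1.66 on the log2 scale (SE 0.24, edgeR quasi-likelihood adjusted p = 0.00379). Serpine2 was the only 1 of the 8 called in this fit, which left the pool out, where 0.455% of 12755 genes were. Lrba, Atxn1l and Serpine2, 3 of the 8, had levels without overlap between LPS+ET+KU and LPS+ET, and the same 3 between LPS+ET+KU and LPS, where 8.26% and 26.3% of the 12755 genes had. The Serpine2 call between LPS+ET+KU and LPS+ET was lost in 6 alternative settings. Among them was the fit with only the 8 gradients compared, in which no gene was called. It was also lost without LPS+ET+KU LUL15 (adjusted p = 0.0146), LPS+ET+KU LUL18 (0.0238), LPS+ET LUL17 (0.013) or LPS+ET LUL18 (0.0182), with the log2 change then between -1.62 and -1.50. With the pool as a block the adjusted p was 1.48e-05. Relative to LPS the Serpine2 level with KU55933 stayed higher by 3.06 (SE 0.25, edgeR adjusted p = 8.88e-06). The rise of Serpine2 in LPS+ET over LPS was 4.73 (SE 0.27) and is given as a description.

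**Figure D3:**
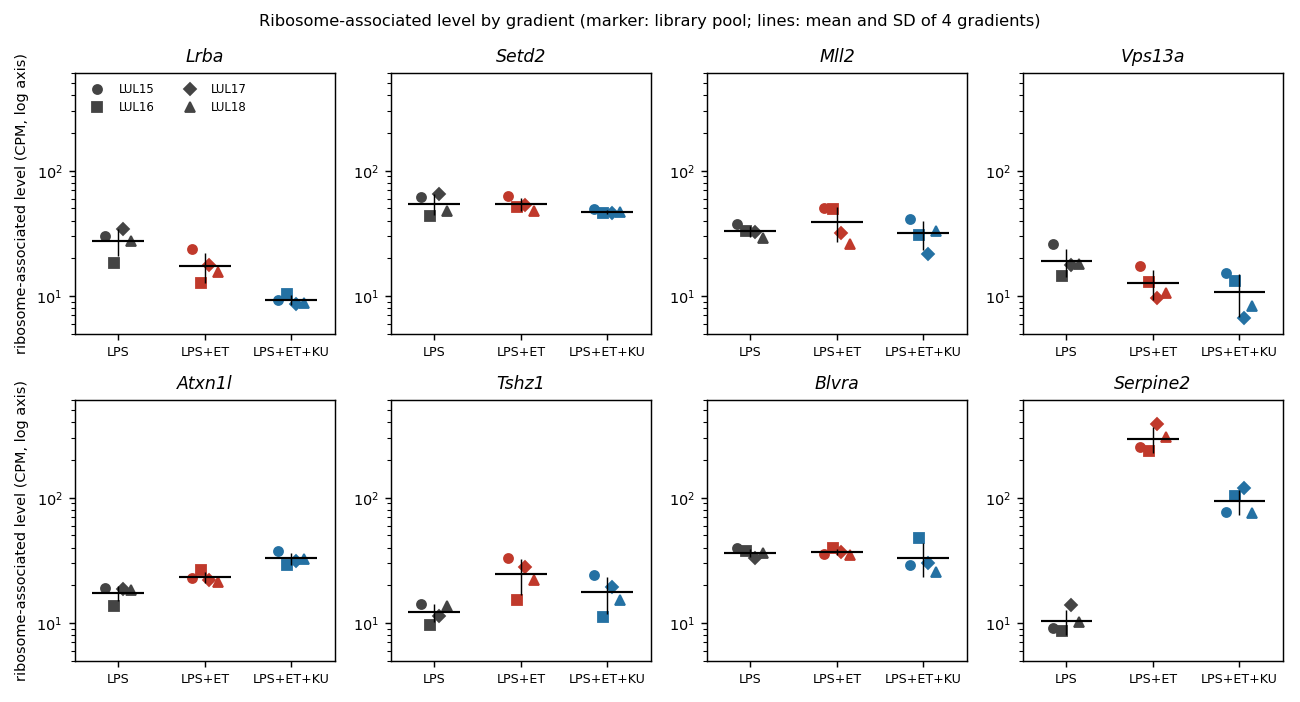
Each panel shows 1 mRNA, with the treatment on the x axis and the ribosome-associated level in CPM on a logarithmic y axis. Each marker is 1 gradient, its shape gives the library pool, and the lines give the mean and SD of 4 gradients. Serpine2 goes from 10.4 ± 2.38 CPM in LPS to 297 ± 68.7 in LPS+ET and 93.6 ± 20.6 with KU55933, and Lrba has its lowest 4 values in LPS+ET+KU.

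Lrba mRNA stood at 30.1, 18.3, 34.2 and 27.4 CPM in LPS, 23.9, 12.6, 17.6 and 15.5 CPM in LPS+ET and 9.31, 10.4, 8.61 and 8.79 CPM with KU55933. On this scale, which weighs fractions by their library totals, all gradients with the inhibitor lay below all others. Against LPS the level changed by -1.67 (SE 0.21, edgeR adjusted p = 1.41e-04), and against LPS+ET by -0.90 (SE 0.21, adjusted p = 0.0389), which passed with the pool as a block (-0.86, adjusted p = 0.00672). When fractions were given equal weight neither passed, with -0.88 (limma adjusted p = 0.0918) against LPS and -0.28 (adjusted p = 0.836) against LPS+ET, and the mean CPM of Lrba over the heavy fractions, 17.8 to 67.9 with KU55933, overlapped the 20.1 to 46.5 of LPS+ET.

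Atxn1l, in contrast, had its highest ribosome-associated level in LPS+ET+KU. It was at 18.9, 13.7, 18.7 and 18.2 CPM in LPS, 22.7, 26.4, 22.1 and 21.4 CPM in LPS+ET and 37.7, 29.3, 31.3 and 32.7 CPM with KU55933, and the 3 groups did not overlap. Against LPS the level in LPS+ET+KU was higher by 0.80 (SE 0.15, edgeR adjusted p = 0.00257), with an adjusted p of 0.0103 without LPS LUL15 and 0.0115 without LPS LUL16. Against LPS+ET it differed by 0.49 (SE 0.15, adjusted p = 0.11). Without the pool in the fit, Lrba, Atxn1l and Serpine2 were thus 3 of the 8 called against LPS, where 10.7% of 12755 genes were.

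The other 5 were not called in either contrast of the level in the fit without the pool. Vps13a was at 25.9, 14.4, 17.7 and 18 CPM in LPS, 17.3, 13.0, 9.62 and 10.7 CPM in LPS+ET and 15.3, 13.2, 6.63 and 8.34 CPM with KU55933, and its change of -0.93 (SE 0.25, edgeR adjusted p = 0.0188) against LPS passed with the pool as a block (-0.95, adjusted p = 6.26e-04). Tshz1 was at 14.1, 9.62, 11.4 and 13.6 CPM in LPS, 32.9, 15.1, 28 and 22.1 CPM in LPS+ET and 24.3, 11.2, 19.4 and 15.3 CPM with KU55933. In every pool the Tshz1 level with the inhibitor lay between the other two, at 0.40 (adjusted p = 0.264) from LPS and -0.49 (adjusted p = 0.358) from LPS+ET. Setd2 ran from 43.7 to 64.7 CPM, Mll2 from 21.6 to 50.1 CPM and Blvra from 25.6 to 47.8 CPM over all 12 gradients. Their groups overlapped, and their changes with KU55933 lay between -0.33 and -0.15 in both contrasts.

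Coding length was a property the choice had not used. Mll2 (5588 codons), Vps13a (3166), Lrba (2854) and Setd2 (2537) had ranks 2, 36, 56 and 90 among 7604 tested genes with an annotated coding sequence, taking for each gene its longest. Tshz1 (1084 codons) had rank 824 and Atxn1l (687) rank 2012, whereas Serpine2 (397) and Blvra (295) lay at ranks 4265 and 5470. Of the 8 mRNAs 4 therefore belonged to the 196 genes with 6000 or more coding bases.

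The other 192 genes of that length had not been chosen. They had a median log2 odds difference of -0.51 in LPS+ET against LPS, with 160 lower and 32 higher, against a median of -0.04 over all 7999 genes, and Chd7 and Vps13c were called lower. In LPS+ET+KU against LPS+ET the 192 had a median of 0.30, with 140 higher and 52 lower, none called by limma and 47 at an unadjusted p under 0.05. Against LPS they had a median of -0.20, and Chd7, a chromatin remodeller, and Nbas were called. The distance of the 4 long mRNAs from these medians is not read as a difference, because LPS+ET against LPS chose them and the other contrasts share its gradients.

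**Figure D4:**
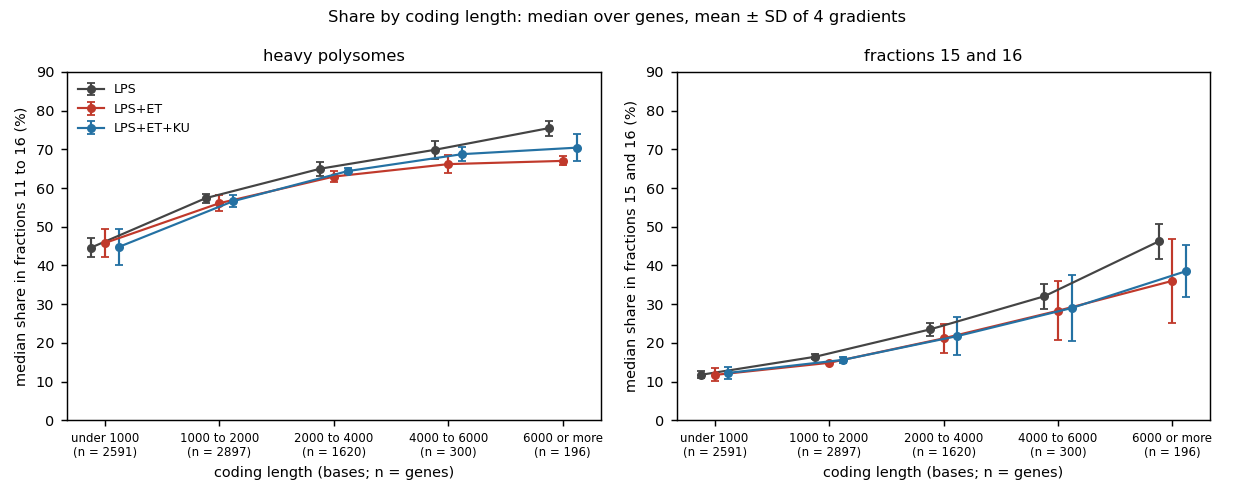
The x axis gives bins of coding length in bases, with the number of genes in each, and the y axis the median share over the genes of a bin, in heavy polysomes (left) and in fractions 15 and 16 (right), in percent. Points and bars are the mean ± SD of 4 gradients for LPS (dark grey), LPS+ET (red) and LPS+ET+KU (blue). In the longest bin the median heavy share came to 75.5 ± 1.91% in LPS, 67.0 ± 1.17% in LPS+ET and 70.4 ± 3.45% with KU55933, and the 3 groups nearly coincide in the shortest.

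Across the bins the median heavy share in LPS was 44.6, 57.4, 65.0, 69.9 and 75.5% for genes under 1000 coding bases, 1000 to 2000, 2000 to 4000, 4000 to 6000 and 6000 or more. The median log2 odds difference of LPS+ET to LPS was 0.08, -0.08, -0.11, -0.24 and -0.52 in the same bins, and that of LPS+ET+KU to LPS+ET was -0.06, 0.04, 0.08, 0.16 and 0.31. The longer the coding sequence, the lower the first median and the higher the second. Both medians hold the same LPS+ET gradients, with opposite sign, so these trends are not independent of each other. In the longest bin fractions 15 and 16 held a median of 46.2 ± 4.46% in LPS, 36 ± 10.8% in LPS+ET and 38.5 ± 6.63% with KU55933, where the Lrba values were 67.8 ± 5.84%, 39.4 ± 14.0% and 56.8 ± 11.7% and those of Vps13a 61.1 ± 5.97%, 41.4 ± 12.0% and 31.04 ± 9.02%. The library totals of fraction 16 differed between the groups, at 699623 to 1088275 counts in LPS, 51226 to 317204 in LPS+ET and 125032 to 411369 with KU55933, and the part of this in the length pattern was not tested.

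Relatives of the 8 mRNAs were taken from lists of gene families. Of the BEACH domain genes, 4 of 8 had enough counts, Lrba among them, and none of the other 3 was called for share in any contrast (limma). Lyst, the gene of lysosomal traffic mutated in beige mice, had a share of 70.5 ± 2.24% in LPS, 58.1 ± 7.28% in LPS+ET and 63.1 ± 8.73% with KU55933, and Wdfy4, used in antigen cross-presentation, 85.0 ± 3.40%, 83.6 ± 0.901% and 86.8 ± 5.35%. In level 3 of 6 BEACH genes were called lower in LPS+ET+KU than in LPS, namely Lrba, Lyst (-1.82) and Wdfy4 (-1.59). Of 12755 genes 10.7% were called in this contrast, in either direction. In LPS+ET against LPS Lyst was at -1.43 and Wdfy4 at -1.49, and LPS+ET+KU differed from LPS+ET by -0.39 and -0.10. The other VPS13 genes lay on the same side of 0 as Vps13a in LPS+ET against LPS, and Vps13c was called in that contrast (limma adjusted p = 0.00859). Vps13c had 73.7 ± 8.92% in LPS, 45.0 ± 2.02% in LPS+ET and 59.5 ± 6.96% with KU55933, and LPS+ET+KU differed from LPS+ET by 0.86 (adjusted p = 0.424). Vps13b (-1.97) and Vps13d (-1.11) were called lower in level in LPS+ET+KU than in LPS, and were at -1.35 and -0.34 in LPS+ET against LPS.

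Among 24 histone lysine methyltransferases with enough counts, none was called for share in LPS+ET+KU against LPS+ET (limma). Of the 22 other than Setd2 and Mll2, 18 had a higher share in LPS+ET+KU and 4 a lower one. Over all 24, Setd2 and Mll2 included, the median log2 odds difference was 0.26, and over all genes it was 0.01. The largest difference was that of Mll1, the founding member of the MLL family, at 1.45 (adjusted p = 0.144), with a share of 60.4 ± 7.18% in LPS, 35.6 ± 6.19% in LPS+ET and 59.8 ± 6.42% with KU55933. Next was Mll5 at 1.04 (adjusted p = 0.144), with 51.6 ± 4.45%, 37.7 ± 3.53% and 55.5 ± 0.886%. Suv39h2, which methylates lysine 9 of histone H3, lay at the other end with -0.29 (adjusted p = 0.845). In LPS+ET against LPS 17 of the 22 other than Setd2 and Mll2 were lower and 5 higher, none of them called (limma). In level Nsd1 (-0.62), Setd8 (-0.70) and Smyd5 (-0.97) were called lower in LPS+ET+KU than in LPS. These were 3 of 27 tested, where 10.7% of 12755 genes were called in either direction. In LPS+ET against LPS the 3 were at -0.25, -0.94 and -0.49.

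Cic, the Capicua gene with which Atxn1l acts, had shares of 69.6 ± 4.65%, 67.1 ± 4.16% and 67.3 ± 7.22% in LPS, LPS+ET and LPS+ET+KU, and differed by 0.03 (limma adjusted p = 0.985) between LPS+ET+KU and LPS+ET. Tshz2, with 2.32 to 78.8% over its gradients, was too variable to set beside Tshz1. Of 10 haem genes with enough counts, Blvra alone was called for share, in LPS+ET+KU against LPS. Blvrb, the second biliverdin reductase, had 46.3 ± 3.90%, 42.1 ± 2.96% and 34.3 ± 6.31%, and Hmox1, the stress-induced haem oxygenase that makes biliverdin, 64.7 ± 7.61%, 65.8 ± 3.21% and 70.5 ± 1.19%. In level Hmox1 (1.48) and Fech (0.97), the enzyme that inserts iron into haem, were called higher in LPS+ET+KU than in LPS. These were 2 of 12 tested, where 10.7% of 12755 genes were called in either direction. In LPS+ET against LPS Hmox1 was at 1.88 and Fech at 0.71. Of 5 serpins tested none was called for share. Serpinf1, a secreted serpin like Serpine2, was the only other gene of these lists called in level between LPS+ET+KU and LPS+ET, at -2.55 (edgeR adjusted p = 0.00607), and its share came to 44.6 ± 7.69%, 55.3 ± 6.08% and 38.1 ± 7.08%.

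The profile of each mRNA, 39 mean shares from 13 fractions in 3 treatments, was compared with those of the 7999 genes by Pearson's r, as a description across values that share libraries. Lrba was most like Gm13123, a pseudogene (r = 0.978), Setd2 like Arid4b (0.964), Vps13a like the giant ubiquitin ligase gene Huwe1 (0.962) and Mll2 like the Golgi scaffold gene Golgb1 (0.931). Blvra was most like Znhit6 (0.900), Serpine2 like Traip (0.904), Atxn1l like Zbtb41 (0.861) and Tshz1 like Traf6 (0.751), the loosest match. Among the mRNAs themselves the 4 long ones had r of 0.75 to 0.87 with each other, and the largest r of any other pair was 0.38, between Atxn1l and Tshz1. Huwe1 had a share of 84.5 ± 2.05% in LPS, 69.6 ± 4.20% in LPS+ET and 69.2 ± 8.92% with KU55933, and Arid4b had 65.8 ± 3.74%, 49.2 ± 8.49% and 64.5 ± 2.84%.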

How the data were processed

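The submitters' processing notes name TopHat2 2.0.12, HTSeq and DESeq2 1.6.3, and the study's methods give TopHat2 and HTSeq for its separate libraries of total mRNA. For the 3′ end reads the methods describe sorting by barcode and removal of PCR duplicates and A tracts. Those reads were then mapped to GRCm38 and their counts summed per Ensembl gene. The authors deposited 1 table of raw counts, with 1 column per gradient fraction. Of its columns 79 matched 1 sample and 78 a treatment and fraction. The mRNAs and all gene lists were chosen with earlier results of these data known. Here fractions 4 to 16 were scaled to CPM, and the heavy share was tested for the 7999 genes averaging at least 100 counts in a gradient. The test used log2 odds with limma 3.58.1. For the odds the share was multiplied by the gene's counts in the gradient, and a prior of 0.5 counts was added to each side. Summed counts of 12755 genes were tested with edgeR 4.0.16 (quasi-likelihood) and, as an alternative, DESeq2 1.42.0, in R 4.3.3. All 12 gradients shared a fit, and calls needed a Benjamini-Hochberg adjusted p under 0.01. The scripts were tested on simulated data. Deviations from treatment means correlated at 0.306 to 0.799 in all 12 same-pool pairs and exceeded 0.1 in 7 of 36 others. The library pool, read from the labels, was therefore taken to pair the gradients, though the labels do not say what a pool shares. The main fits held treatment only and ignored this pairing. Fits with the pool as a block are given as alternatives. Besides the 8 mRNAs the text names the gene with the profile most like each, relatives past a test or at the ends of their list, and Cdkn1a. Coding lengths came from GENCODE M21, in place of protein lengths. Leaving out fraction 4 was chosen after seeing the data.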

Additional observations from a re-analysis of the deposited data

Results flagged for a closer look

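Of 72 groups of 4 gradients examined (8 mRNAs, 3 treatments, and the heavy share with and without scaling and the level), 4 had 1 gradient far from the other three by Dixon's test at the 95% level. Chance alone gives this in about 1 of 20 groups, so a count of 4 is near what chance gives. The heavy share of Mll2 in LPS+ET LUL15 was 47.9%, against 53.3 to 54.3% in the others. The level of Atxn1l in LPS LUL16 was 13.7 CPM, against 18.2 to 18.9 CPM. With counts as deposited, the heavy share of Tshz1 in LPS+ET+KU LUL17 was 65.8%, against 53.5 to 55.2%, and that of Blvra in LPS+ET LUL16 was 34.1%, against 71.3 to 78%.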

How the results depend on the processing

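The count of genes called for the heavy share in LPS+ET against LPS was 25, and it was 0 with counts as deposited or with the 12 shallow libraries left out, 6 with heavy polysomes from fraction 12, 41 without fraction 4, 4 and 61 with means of 30 and 300 counts, 3 with only the 8 gradients compared, 55 with edgeR on class counts and 0 to 20 with 1 gradient left out. For LPS+ET+KU against LPS the count was 70, and in the same order 0, 0, 43, 78, 0, 140, 40, 242 and 0 to 16. For LPS+ET+KU against LPS+ET it was 0, and 4 with edgeR on class counts. For the level, LPS+ET+KU against LPS+ET gave 58 genes, 413 with DESeq2, 13 with equal weight per fraction, 0 with only the 8 gradients and 19 to 172 with 1 gradient left out. Against LPS it gave 1361, 2319 with DESeq2, 813 with equal weight and 755 to 1708 with 1 left out. The causes were not tested.

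With the library pool as a replicate block the share counts were 35, 0 and 51 for LPS+ET against LPS, LPS+ET+KU against LPS+ET and LPS+ET+KU against LPS, and the level counts 811 for LPS+ET+KU against LPS+ET and 3589 against LPS. Apart from the calls given beside their results, the block changed no call of the 8 mRNAs.

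Signs reversed in LPS+ET+KU against LPS+ET as follows. With counts as deposited the share differences were -0.19 for Setd2, -0.11 for Vps13a, -0.078 for Atxn1l and -0.59 for Blvra. With heavy polysomes from fraction 12 they were -0.085 for Vps13a and -0.036 for Blvra, and with edgeR on class counts -0.29 for Blvra. Leaving out 1 gradient gave -0.18 to 0.25 for Vps13a and -0.046 to 0.21 for Blvra. With equal weight per fraction the level differences were 0.28 for Mll2 and 0.071 for Blvra, and against LPS 0.044 for Setd2, 0.32 for Mll2 and 0.052 for Blvra. Of 141 values for the share in LPS+ET+KU against LPS+ET, 12 reversed. Of 141 against LPS, 3 newly passed the threshold and none reversed. Only values of Vps13a, Atxn1l and Blvra, the 3 called, could fall out, and 41 of theirs, the larger part, were no longer past the threshold. The 141 also hold the mRNAs that were not called, so the 41 are not a part of 141 comparable calls.

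Depth limits the profiles, since a single fraction of Lrba, Vps13a or Tshz1 often rests on a few counts. A gene's share weighs each fraction library alike, whatever its RNA content.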
